A study of Mus musculus with 20 samples.

Results

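The genes described here are those that encode the proteasome and its helpers. They are the protein-coding genes of the count table whose mouse symbol begins with Psma, Psmb, Psmc, Psmd, Psme, Psmf or Psmg, 50 genes of 25317 gene identifiers. The rule uses names and no measured value, and 3 pseudogenes that share these name stems (Psmb5-ps, Psmb6-ps and Psmb7-ps2) were left out. Each of those pseudogenes held at most 1.65% of the counts of its parent gene in any library.

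The proteasome degrades proteins that carry ubiquitin chains. Its barrel-shaped core has outer rings of alpha subunits and inner rings of beta subunits, among which Psmb6, Psmb7 and Psmb5 carry the proteolytic sites. A regulatory cap opens the core, with a ring of ATPases (Psmc1 to Psmc6) that unfold the substrate and a set of non-ATPase subunits (Psmd genes) that bind ubiquitin, remove it and hold the particle together. In neurons, proteasomes also turn over synaptic proteins, and interferon-inducible beta subunits can replace the catalytic ones in immune-activated cells.

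RNA came from the cortex of C57BL/6 mice, 3 months old, either wild type or heterozygous for a deletion of Foxp2, a forkhead transcription factor gene. Each animal's cortical lysate gave an aliquot kept before pull-down (Input). From that lysate, anti-GFP serum then recovered GFP-tagged ribosomes with their RNA (bacTRAP, called IP). The sources used here do not say which cells express the tag. The comparisons used 3 heterozygous animals (het729, het786 and hetBT13) and 5 wild types (wt734, wt736, wt785, wtBT13 and wtBT14), each with an IP and an Input library. Another 4 heterozygous libraries, labelled Input with titles ending in IX or IXX and coming from 2 animals without an IP (het730 and hetBT14), were kept out of the comparisons. The labels do not say how the deletion was made or in which cells it acts.

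Library totals ran from 2689544 to 5754169 counts over the 20 libraries. Foxp2 stood at 47.1 ± 10.9 CPM (counts brought to a common library total by TMM scaling, SD, n = 5) in wild-type Input and 27.9 ± 3.52 (n = 3) in heterozygous Input, and at 69.8 ± 21.2 and 46.7 ± 12.9 in the matching IP libraries. In IP against Input of wild types, 9 of 10 astrocyte markers (1 rose), 7 of 10 microglial, 6 of 7 oligodendrocyte and 6 of 6 interneuron markers fell, while 5 of 7 glutamatergic and 4 of 7 layer 6 corticothalamic markers rose and 2 and 1 of them fell (edgeR, Benjamini-Hochberg adjusted p below 0.05). Of 10 endothelial markers, 4 were tested, of which 1 fell and 0 rose. All 10 summed to 55.1 to 102 CPM in wild-type IP and 66.1 to 96.1 in wild-type Input. Oligodendrocyte markers were not at 0 in IP but summed to 1066 to 1561 CPM in wild types, against 3788 to 5103 in Input. Mitochondrially encoded genes took 0.398% of the counts in the IP of het729, against 0.0616% to 0.127% in the other IP libraries. A proteasome gene at a lower level in IP may be less abundant on tagged ribosomes or more abundant in untagged cells, which cannot be told apart here, and in Input fewer cells of a type and less RNA per cell cannot be told apart.

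Of the 50 genes, 47 passed the count filter in the comparison of IP with Input. The others were Psma8, a testis-specific alpha subunit, Psmb9, an inducible catalytic subunit, and Psmb11, the catalytic subunit of the thymus. Together the 50 genes took 0.694% to 0.746% of all counts in wild-type Input, with a mean of 0.71% ± 0.0211 (SD, n = 5). In wild-type IP the share was 0.766% ± 0.0266 (n = 5), from 0.751% to 0.813%, in heterozygous Input 0.741% ± 0.0236 (n = 3) and in heterozygous IP 0.784% ± 0.0244 (n = 3). Every wild-type IP share lay above every wild-type Input share, while the shares of the Input genotypes overlapped. The order of the fractions depends on the scaling: after TMM scaling, the 50 genes summed to 6814 to 7012 CPM in wild-type IP and 7317 to 7941 CPM in wild-type Input.

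Levels between genes were compared per kilobase of the annotated principal transcript. In wild-type Input, the median of the 50 genes was 78.1 CPM per kilobase, and the highest was the cap ATPase Psmc5 at 425 CPM per kilobase. The constitutive beta subunits had a median of 185 CPM per kilobase, from 107 for Psmb3 to 282 for Psmb2. The ATPases had 192, from 79.7 for Psmc6 upward. The non-ATPase cap subunits had a median of 106, and the alpha ring 61.3, with Psma8 at 0.159 and Psma7 at 310. Values per kilobase depend on the transcript taken as principal, which has 2911 bases for Psma2, 2846 for Psma3 and 1160 for Psmb7. Before this division, wild-type Input held 176 CPM for Psma2, 176 for Psma3 and 180 for Psmb7. Whether these transcripts are the ones present in cortex was not tested. Genes for proteins that assemble or activate the particle were at lower levels, with medians of 25.8 CPM per kilobase for the core assembly chaperones Psmg1 to Psmg4, 26.5 for the base assembly factors Psmd5, Psmd9 and Psmd10, and 18.9 for the activators.

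Genes of the family differed between IP and Input in both directions. In wild types, 9 of the 47 tested genes were higher in IP than in Input and 10 were lower, against 28.5% and 25.6% of all 14797 genes tested (edgeR, Benjamini-Hochberg adjusted p below 0.05, animal as a block). In heterozygotes 6 were higher and 14 lower, against 22.6% and 22.1% of all genes. With DESeq2 the wild-type counts were 6 higher and 11 lower, and without a filter on low counts 11 and 7. The family's shares of calls were thus 19.1% higher and 21.3% lower in wild types, both below the background, and 12.8% higher and 29.8% lower in heterozygotes. The median log2 change of the 47 genes was -0.02 in wild types and -0.06 in heterozygotes, beside 0.03 and 0.04 over all genes tested. By direction alone, with no test, 8 of the 47 genes were higher in IP in each of the 8 animals, 17% against 22.7% of all genes, and 13 were lower in each animal, 27.7% against 22.7%.

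Core assembly chaperones and cap ATPases moved in opposite directions. Of the 4 chaperone genes, Psmg1, Psmg2 and Psmg3 were higher in IP in both genotypes, and the median log2 change of the 4 was 0.73 in wild types and 0.72 in heterozygotes. Of the 6 ATPase genes, Psmc1, Psmc2, Psmc3 and Psmc5 fell in both genotypes and Psmc4 in heterozygotes, with medians of -0.28 and -0.34. Both groups were scaled together in the same libraries but differ in level. In wild-type Input the medians were 192 CPM per kilobase for the ATPases and 25.8 for the chaperones. The part of level or scaling in the contrast was not tested. For orientation, cytosolic ribosomal protein genes had a median of -0.45 in wild types and -0.60 in heterozygotes, and nuclear oxidative phosphorylation genes -0.37 and -0.39.

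**Figure D1:**
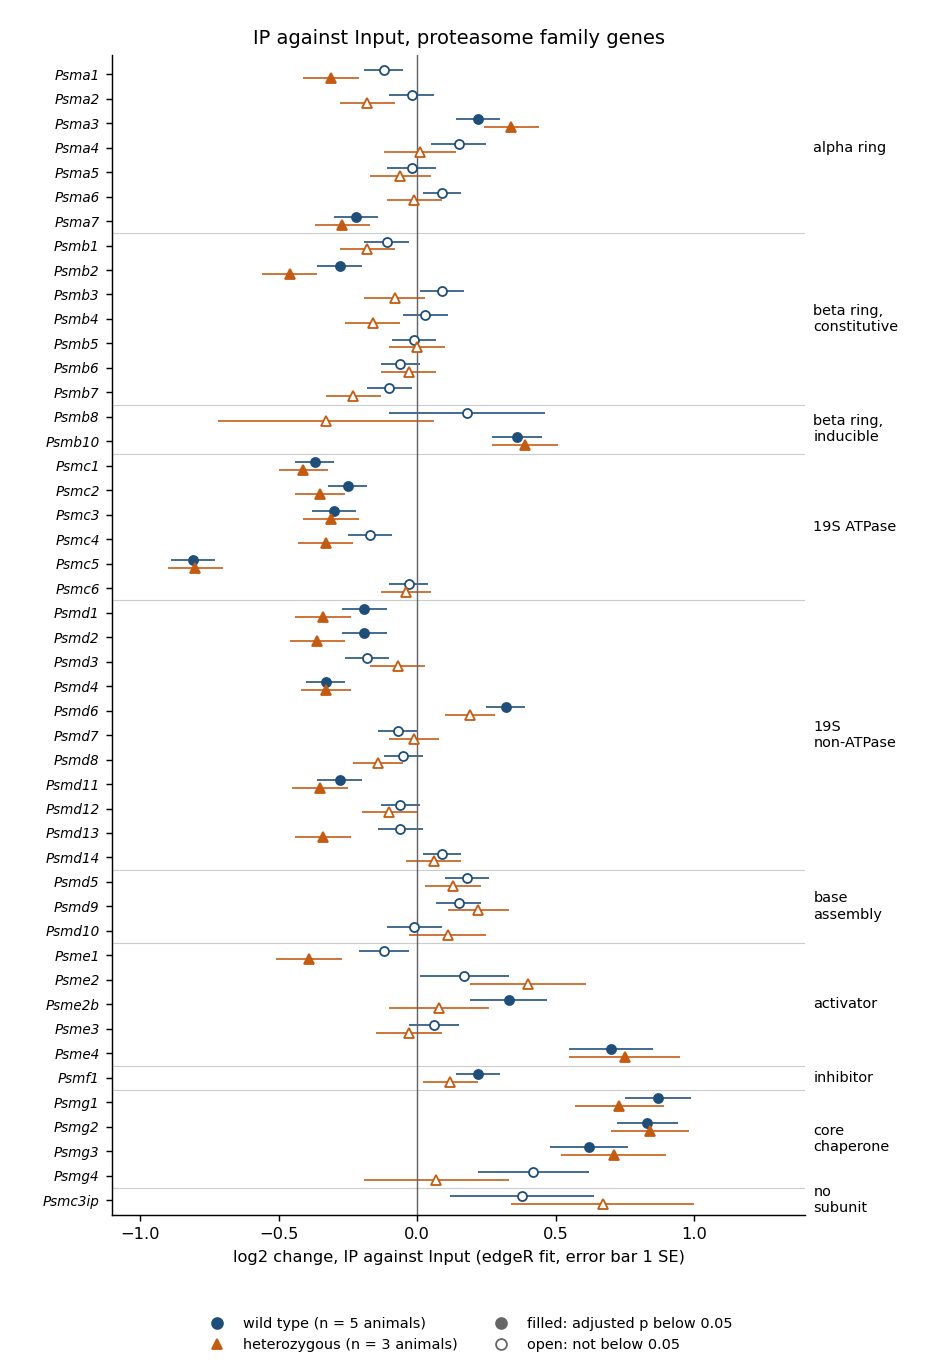
The log2 change of IP against Input is plotted on the horizontal axis for the 47 tested genes, arranged by role, with 1 SE. Circles are wild types (n = 5 animals) and triangles heterozygotes (n = 3), filled where the adjusted p was below 0.05. The ATPases lie at or left of 0, down to -0.81 for Psmc5, and Psmg1 to Psmg3 lie right of 0, up to 0.87.

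The letters around the start codon are shown for these opposite groups, since IP reads RNA on ribosomes and this is where translation begins. Each line gives the last 12 bases of the leader, the start codon in capitals and the next 6 bases of the principal transcript in GENCODE vM21 on GRCm38, 5′ to 3′. The ATPases come first and the chaperones after them, with Psmg2 not shown.
Psmc1: gactgaaggaagATGggtcaa
Psmc2: tgcagtccccagATGtccagg
Psmc3: ttcggcctcttcATGcaggaa
Psmc4: ggcttggtcactATGgaggag
Psmc5: gagagagggaagATGgcgctt
Psmc6: cggcttctcatcATGgcggac
Psmg1: agctgagggaccATGgctgcc
Psmg3: aagaacgggaccATGgaagac
Psmg4: gtggctggcgggATGgaggag
A purine 3 bases before the start codon together with a G just after it, the core of the sequence that vertebrate ribosomes favour, was present in 4 of 6 ATPases and in 3 of 4 chaperones (Psmg1, Psmg3 and Psmg4, but not Psmg2). Over the 49 family genes with a usable leader it was present in 26, or 53.1%, against 43.7% of 16776 coding genes. Psmc5, whose level fell, and Psmg1, whose level rose, both have it.

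Psmc5, an ATPase of the cap base on chromosome 11 (106256154 to 106263120, plus strand, GRCm38), showed the largest fall among the 47 tested genes. With wild types in the order wt734, wt736, wt785, wtBT13 and wtBT14, its Input levels were 546, 555, 579, 554 and 565 CPM. The IP levels of the same animals were 333, 319, 313, 311 and 312 CPM. In heterozygotes, in the order het729, het786 and hetBT13, Input held 589, 605 and 572 CPM, and IP held 368, 310 and 341 CPM. The Input and IP libraries did not overlap in either genotype, and IP was lower in 8 of 8 animals. The fitted log2 change was -0.81 ± 0.08 (SE) in wild types (edgeR, Benjamini-Hochberg adjusted p = 2.86e-08) and -0.80 ± 0.10 in heterozygotes (adjusted p = 2.71e-06).

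The other ATPases changed less. Psmc1, on chromosome 12, had 306, 283, 324, 349 and 321 CPM in wild-type Input (wt734, wt736, wt785, wtBT13 and wtBT14) and 253, 226, 231, 262 and 249 CPM in the matching IP. Its fractions did not overlap, and the log2 change was -0.37 ± 0.07 (adjusted p = 0.000197, edgeR) in wild types and -0.41 ± 0.09 (adjusted p = 0.00119) in heterozygotes. Psmc3 fell by 0.30 on the log2 scale in wild types and Psmc2 by 0.25. Psmc4 had a log2 change of -0.17 in wild types (adjusted p = 0.0595) and fell by 0.33 in heterozygotes (adjusted p = 0.0101). Psmc6 stood apart within the ring, at 178 ± 16.1 CPM in wild-type Input and 174 ± 11.4 in IP (SD, n = 5), a log2 change of -0.03 ± 0.07 (SE, adjusted p = 0.759).

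Psmg1 and Psmg2 form a dimer that guides the alpha ring, and Psmg3 and Psmg4 form another. Psmg1 (chromosome 16, 95979933 to 95990960, minus strand) had 27.5, 22.9, 27.1, 23.5 and 22.9 CPM in wild-type Input and 44.2, 48.3, 37.2, 46.2 and 49.5 CPM in IP of the same animals, in the order used above. Heterozygous Input held 25.4, 25.03 and 28.6 CPM (het729, het786 and hetBT13) and IP 34.9, 48.3 and 49.8 CPM. Every IP library was above every Input library, and the log2 change was 0.87 ± 0.12 in wild types (adjusted p = 3.72e-06, edgeR) and 0.73 ± 0.16 in heterozygotes (adjusted p = 0.000792).

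Psmg2 had 37.0, 30.1, 29.1, 27.9 and 23.5 CPM in wild-type Input and 50.5, 53.5, 50.4, 53.1 and 53.4 CPM in IP, again without overlap. It went from 29.5 ± 4.86 CPM to 52.2 ± 1.56 in wild types (SD, n = 5) and from 31.2 ± 4.66 to 55.9 ± 5.67 in heterozygotes (n = 3). Its log2 changes were 0.83 (adjusted p = 2.00e-06) and 0.84 (adjusted p = 7.59e-05). Psmg3 went from 15.8 ± 2.81 to 24.1 ± 0.869 CPM in wild types and from 14.9 ± 2.33 to 24.6 ± 3.45 in heterozygotes, with log2 changes of 0.62 and 0.71. Of its exonic bases, 9.68% are also annotated to another gene on the same strand. Psmg4 did not pass, with log2 changes of 0.42 ± 0.20 in wild types (adjusted p = 0.0845) and 0.07 ± 0.26 in heterozygotes. Its Input libraries were scattered from 11.4 to 27.2 CPM, the highest being het729.

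**Figure D2:**
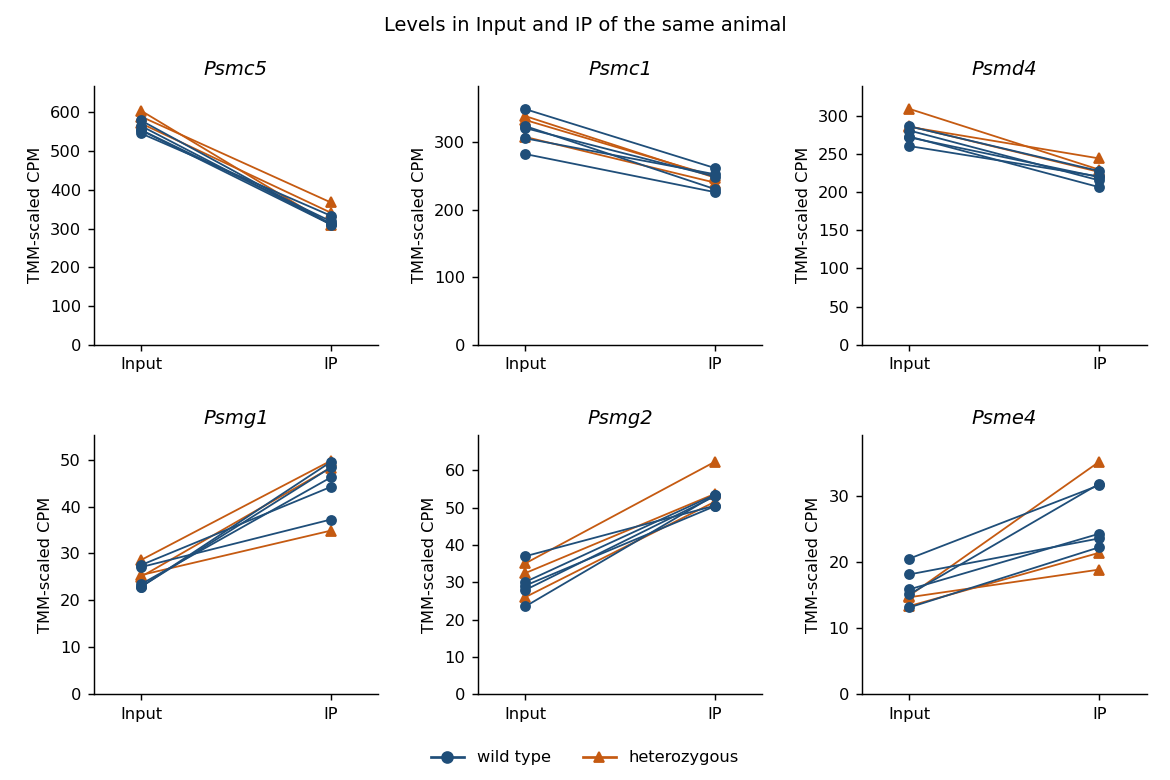
TMM-scaled CPM of 6 genes in Input and IP are joined by a line for each animal, with circles for 5 wild types and triangles for 3 heterozygotes. The lines of Psmc5, Psmc1 and Psmd4 fall in every animal, and those of Psmg1, Psmg2 and Psme4 rise in every animal.

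In the cap, the non-ATPase subunits were mixed. Of 11, 4 fell in wild types (Psmd1, Psmd2, Psmd4 and Psmd11) and Psmd6 rose, while in heterozygotes 5 fell (the same 4 and Psmd13) and none rose. Psmd4 binds ubiquitin chains, and Psmd2 and Psmd1 are the large scaffolds of the base. Psmd4 stood at 273, 261, 281, 287 and 272 CPM in wild-type Input and 207, 221, 216, 228 and 220 CPM in IP. The fractions did not overlap, with a log2 change of -0.33 in both genotypes (adjusted p = 0.000581 and 0.00558, edgeR). Psmd6, a lid subunit, went from 132 ± 9.49 to 164 ± 7.87 CPM in wild types (SD, n = 5), a log2 change of 0.32 (adjusted p = 0.000656), and was at 143 ± 5.43 and 164 ± 13.2 CPM in heterozygotes (log2 change 0.19, adjusted p = 0.11). Psmd14, the deubiquitinase of the lid, had log2 changes of 0.09 and 0.06 and did not pass. None of the base assembly factors Psmd5, Psmd9 and Psmd10 passed, with log2 changes from -0.01 to 0.18 in wild types.

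The core rings changed little as groups. Of the 7 tested alpha genes, Psma3 rose and Psma7 fell in both genotypes, and Psma1 fell in heterozygotes. Psma3 had 177, 166, 179, 167 and 192 CPM in wild-type Input and 175, 212, 200, 215 and 225 CPM in IP. These fractions overlapped through wt734, the 1 animal in which IP was the lower library, and the log2 change was 0.22 (adjusted p = 0.0202). Psma7 fell by 0.22 on the log2 scale in wild types (adjusted p = 0.0223) and by 0.27 in heterozygotes (adjusted p = 0.0401). Of the 7 constitutive beta genes, 1 passed, Psmb2, from 243 ± 22.6 to 199 ± 10.4 CPM in wild types (SD, n = 5), a log2 change of -0.28 (adjusted p = 0.00359), and of -0.46 in heterozygotes (adjusted p = 0.0007).

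The 3 catalytic genes did not pass in either genotype. Psmb5, the chymotrypsin-like subunit, had 149, 152, 133, 114 and 125 CPM in wild-type Input and 152, 129, 136, 127 and 121 CPM in wild-type IP. Its heterozygous libraries held 147, 151 and 134 CPM in Input and 155, 126 and 154 CPM in IP, and the fractions overlapped in both genotypes. Psmb6, the caspase-like subunit, had 207, 191, 216, 210 and 201 CPM in wild-type Input and 207, 192, 202, 176 and 206 CPM in IP. The means were 205 ± 9.52 and 196 ± 12.9 CPM (SD, n = 5), a log2 change of -0.06 ± 0.07. Psmb7, the trypsin-like subunit, had 179, 183, 205, 164 and 169 CPM in wild-type Input and 164, 164, 163, 172 and 172 CPM in IP. Its means were 180 ± 15.8 and 167 ± 4.72 CPM, a log2 change of -0.10 ± 0.08, and -0.23 ± 0.10 in heterozygotes (adjusted p = 0.0728).

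Their inducible counterparts did not act as a unit. Psmb10, which replaces Psmb7 in the immunoproteasome, had 73.1, 75.9, 85.3, 64.0 and 56.9 CPM in wild-type Input and 81.7, 94.6, 89.3, 91.95 and 96.1 CPM in IP. Heterozygotes held 74.9, 79.6 and 75.3 CPM in Input and 102, 101 and 100 CPM in IP. IP was higher in 8 of 8 animals, although the wild-type fractions overlapped through wt785 and wt734, and the log2 change was 0.36 ± 0.09 (adjusted p = 0.00199) and 0.39 ± 0.12 in heterozygotes (adjusted p = 0.00954). Psmb8 replaces Psmb5. It ran from 2.54 to 3.78 CPM in wild-type Input and from 2.51 to 4.23 CPM in wild-type IP, with overlap, at means of 3.09 ± 0.578 and 3.495 ± 0.731 CPM, with log2 changes of 0.18 ± 0.28 and -0.33 ± 0.39 in heterozygotes, which did not pass. Psmb9, which replaces Psmb6, stood between 0.318 and 3.33 CPM in these 16 libraries, too low for the filter. On the annotation, 14.7% of the exonic bases of Psmb8 and 5.79% of those of Psmb9 overlap genes on the other strand, which unstranded libraries do not separate. Of the catalytic genes, Psmb7 shares 11.8% of its exonic bases with Nek6 on the other strand. Psmb5 shares 12.1% with another gene on the same strand.

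**Figure D3:**
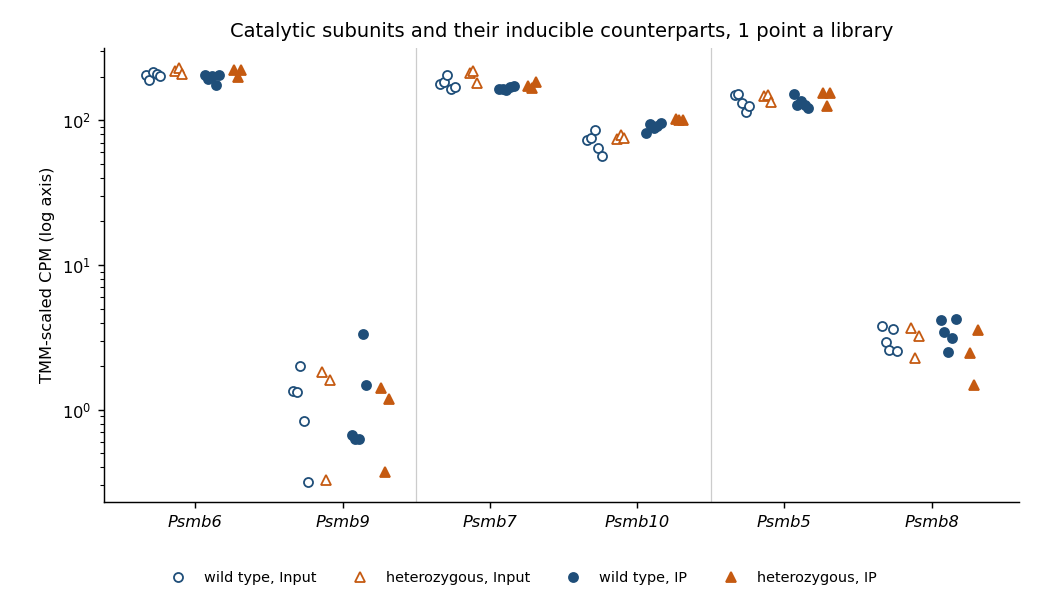
TMM-scaled CPM on a log axis is shown for each catalytic subunit beside the inducible subunit that replaces it, 1 point a library. Psmb10 lies between 56.9 and 102 CPM, below every Psmb7 library, of which the lowest is at 162.7 CPM. Psmb9 and Psmb8 lie at or below 4.23 CPM beside Psmb6 and Psmb5 above 113 CPM.

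Psmb11 gave a low signal on the IP side. It had 0.27, 0.266, 0.576, 0 and 0.318 CPM in wild-type Input (wt734, wt736, wt785, wtBT13 and wtBT14), and 2.34, 1.41, 2.09, 2.00 and 1.10 CPM in IP. In heterozygotes it had 0, 0 and 0.403 CPM in Input and 0.704, 2.58 and 1.70 CPM in IP. IP was above Input in 8 of 8 animals. These levels rest on 5 counts in all wild-type Input and 48 in IP, and on 1 and 28 in heterozygotes. With the filter removed, the log2 change was 2.58 ± 0.69 in wild types and 3.57 ± 1.13 in heterozygotes (edgeR), fitted sizes that depend on the prior count at such levels. Psmb11 was below the filter and was added after its values were seen, so no p is given.

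Among the activators, Psme4, the large monomeric cap that opens the core without ATP, rose in both genotypes. Its wild-type levels were 15.1, 20.5, 15.9, 13.1 and 18.1 CPM in Input and 31.8, 31.6, 24.3, 22.2 and 23.6 CPM in IP. Heterozygotes held 14.7, 13.3 and 14.9 CPM in Input and 18.8, 21.4 and 35.1 CPM in IP. The fractions did not overlap within a genotype, and the log2 change was 0.70 ± 0.15 (adjusted p = 0.000345) and 0.75 ± 0.20 (adjusted p = 0.00357). Psme3, the nuclear activator, did not pass, with log2 changes of 0.06 and -0.03. Psmf1, an inhibitor of the core, rose in wild types by a log2 change of 0.22 (adjusted p = 0.0272) and had 0.12 in heterozygotes (adjusted p = 0.346). Psmc3ip shares the name stem but encodes a recombination factor and no subunit, and had log2 changes of 0.38 and 0.67 that did not pass.

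Psme1 and Psme2 build the heteromeric activator induced by interferon. Psme1 fell in heterozygotes, from 64.7, 62.7 and 62.9 CPM to 49.7, 48.7 and 47.0 CPM, a log2 change of -0.39 (adjusted p = 0.00866), and had -0.12 in wild types (adjusted p = 0.285). The mouse genome holds a near copy of Psme2, the single-exon gene Psme2b on chromosome 11, while Psme2 has 11 exons on chromosome 14. Their coding sequences of 720 bases differ at 5 positions, 99.3% identity, with identical runs of up to 311 bases. Coding positions 454 to 543, counted from the start codon, hold 3 of the differences, here in capitals and 5′ to 3′ on the coding strand, from GENCODE vM21.
Psme2: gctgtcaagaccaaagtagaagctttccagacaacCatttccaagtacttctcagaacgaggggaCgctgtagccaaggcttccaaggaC
Psme2b: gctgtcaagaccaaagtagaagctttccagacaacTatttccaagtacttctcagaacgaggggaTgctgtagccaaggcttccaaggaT
Reads of the coding sequence that cover none of the 5 positions cannot be assigned to 1 copy, so values of both genes are uncertain. The untranslated parts of the transcripts were not compared. Psme2 was at 14.9 ± 2.19 CPM in wild-type Input and 16.8 ± 2.69 in IP, and Psme2b at 24.9 ± 2.94 and 31.7 ± 5.99. Psme2b passed in wild types with a log2 change of 0.33 (adjusted p = 0.0482) and Psme2 did not, with 0.17.

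Calls of IP against Input in both genotypes covered 6 genes that were higher (Psma3, Psmb10, Psme4, Psmg1, Psmg2 and Psmg3) and 10 that were lower (Psma7, Psmb2, Psmc1, Psmc2, Psmc3, Psmc5, Psmd1, Psmd2, Psmd4 and Psmd11). No gene passed in opposite directions, 24 passed in neither genotype, 3 in wild types alone and 4 in heterozygotes alone. How many of all genes tested were called in both genotypes was not counted, so these counts have no background. In single genotypes, 28.5% of all genes were higher and 25.6% lower in wild types, and 22.6% and 22.1% in heterozygotes. In every alternative run, 6 of the 9 higher and 7 of the 10 lower calls held in wild types, and 2 of 6 and 6 of 14 in heterozygotes. In wild types, leaving out wt736 or wtBT13 ended the calls of Psma3 and Psma7, and wt785 also that of Psma7. The calls of Psmd1 and Psmd2 ended without wt736, wt785, wtBT13 or wtBT14, that of Psme2b without wt785, wtBT13 or wtBT14, and that of Psmf1 without wt734, wt736 or wtBT14. In heterozygotes, 7 genes in place of 14 were lower without het786, which ended the calls of Psma1, Psma7, Psmc3, Psmc4, Psmd1, Psmd11 and Psmd13, and on the higher side that of Psmg3. Leaving out hetBT13 ended those of Psma3, Psmc4, Psmd1, Psmd2 and Psme4. Without het729, the animal with the high mitochondrial share in IP, 6 were higher and 14 lower, and Psmb10 was no longer among the higher calls. Calls over the whole table fell too when an animal was left out. In heterozygotes they went from 6622 genes to 4732 without het786, 5038 without hetBT13 and 5871 without het729. In wild types they went from 8010 to between 7114 (without wt785) and 7416 (without wtBT14).

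Across the 47 genes, the change tended to be negative where the level was high. The Spearman correlation of the wild-type log2 change with the heterozygous Input level, which comes from other animals, was -0.83, and that of the heterozygous change with the wild-type Input level was -0.68. Over all 14797 genes the same correlations were -0.17 and -0.16. With transcript length the family gave -0.17 and -0.13, and 12565 genes with a length gave 0.12 and 0.10. These values are across genes of the same libraries and carry no test.

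Heterozygotes and wild types were compared within each fraction, the question of the study's design. No proteasome gene passed in Input (0 of 47, edgeR, Benjamini-Hochberg), nor did any of the 13870 genes tested, 0% in either direction. DESeq2 and limma-voom also called 0 of the family. At an unadjusted p below 0.05, 6 of the 47 were found (Psmb4, Psmc4, Psmd8, Psmd13, Psme1 and Psme3), 12.8% against 7.06% of all genes. Of the 47 genes, 42 had a higher fitted level in heterozygotes, 89.4% against 51.3% of all genes, with a median log2 difference of 0.12 beside 0.01. Ribosomal protein genes (median 0.21) and oxidative phosphorylation genes (0.18) were shifted in the same direction in the same libraries, as were 14 of 15 ubiquitin supply genes (median 0.11). Of 10 astrocyte markers 9 were negative (median -0.39), with a summed level of 955 to 1013 CPM in heterozygous Input and 1102 to 1549 in wild types. Of 10 microglial markers 9 were negative (median -0.26), with 168 to 190 and 168 to 249 CPM. The heterozygous IX and IXX libraries overlapped the wild types, at 832.7 to 1296 CPM for the astrocyte and 136.2 to 250.1 CPM for the microglial sum. Of the other lists, 1 of 4 tested endothelial (median -0.37) and 2 of 7 oligodendrocyte markers (-0.08) were positive. So were 4 of 7 glutamatergic (0.01), 5 of 7 layer 6 corticothalamic (0.07) and 5 of 6 interneuron markers (0.11). None of these markers passed the test or was at 0, and their part in the shift of the proteasome genes was not tested.

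By role, the constitutive beta genes had a median log2 difference of 0.19 in Input, all 7 positive, and the alpha genes 0.15, all 7 tested positive. The ATPases had 0.09, with 6 of 6 positive, and the non-ATPase cap subunits 0.13, with 11 of 11 positive. The activators were split, with a median of 0.25, 3 positive (Psme1, Psme2b and Psme3, from 0.25 to 0.33) and 2 negative (Psme2 and Psme4, at -0.16 and -0.20). Chaperones (0.08), base assembly factors (0.01) and the inhibitor Psmf1 (0.08) had smaller medians. The negative values were those of Psmb8, Psmd10, Psme2, Psme4 and Psmg3.

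**Figure D4:**
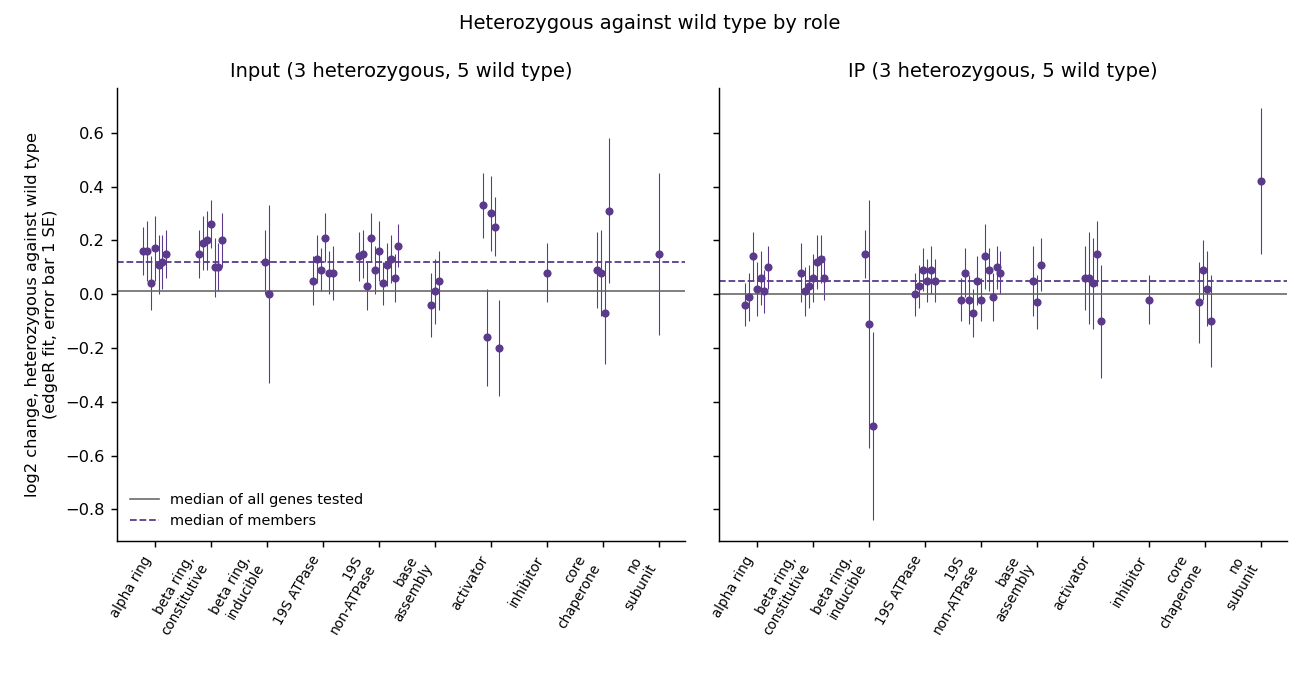
The log2 change of heterozygotes against wild types is plotted with 1 SE for each tested gene by role, in Input and in IP (3 against 5 libraries each). The dashed line is the median of the family, 0.12 in Input and 0.05 in IP, and the solid line that of all genes tested, 0.01 and 0.00.

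Psmd8, a lid subunit on chromosome 7, had 234, 244 and 235 CPM in heterozygous Input (het729, het786 and hetBT13) and 207, 218, 215, 210 and 207 CPM in wild types. In Input the groups did not overlap, and the log2 difference was 0.18 ± 0.08 (adjusted p = 0.698, edgeR). In IP of the same animals it had 216, 213 and 221 CPM in heterozygotes and 208, 207, 212, 196 and 194 CPM in wild types. The IP groups did not overlap either, with a log2 difference of 0.08 ± 0.08 (adjusted p = 0.981).

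Psme1 had 64.7, 62.7 and 62.9 CPM in heterozygous Input and 49.4, 47.1, 58.8, 54.7 and 43.2 CPM in wild types. The groups did not overlap, and the log2 difference was 0.33 ± 0.12 (adjusted p = 0.67). In IP, Psme1 levels overlapped, at 48.5 ± 1.32 CPM (SD, n = 3) and 46.5 ± 4.67 (n = 5). Psmb4, a structural beta subunit, had the next smallest unadjusted p in Input, with 300, 309 and 289 CPM in heterozygotes and 252, 258, 290, 223 and 239 CPM in wild types. Its groups overlapped through wt785, and the log2 difference was 0.26 ± 0.09 (adjusted p = 0.67). Psmd8 and Psme1 were the 2 genes of 47 with higher, non-overlapping heterozygous levels in Input, 4.26% against 2.42% of all genes, and 0 were lower without overlap, against 2.88%.

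In IP, no gene of the family passed either (0 of 48, edgeR), again beside 0% of the 14755 genes tested, and DESeq2 and limma-voom called 0 of the family. None of the 48 had an unadjusted p below 0.05, against 4.09% of all genes. Of the 48, 34 were positive, 70.8% against 50.7% of all genes, with a median log2 difference of 0.05 beside 0.00. Other gene groups leaned the same way in these libraries. Positive were 68 of 81 ribosomal protein genes (84%, median 0.08) and 71 of 78 oxidative phosphorylation genes (91%, median 0.12). So were 13 of 15 ubiquitin supply genes (median 0.06). In the same libraries 8 of 10 astrocyte markers were negative (median -0.33), with a summed level of 585 to 637 CPM in heterozygous IP and 608 to 794 CPM in wild types. All 10 microglial markers were negative (median -0.37), with 75.6 to 104 and 97.1 to 132 CPM. None of them passed or was at 0. Of the other lists, 1 of 4 tested endothelial (median -0.43) and 1 of 7 oligodendrocyte markers (-0.11) were positive. So were 4 of 7 glutamatergic (0.05), 5 of 7 layer 6 corticothalamic (0.11) and 4 of 6 interneuron markers (0.03). No marker of these lists passed, and the part of any list was not tested. Psmb10 and Psmd8 had higher heterozygous levels without overlap, 4.17% against 1.82% of all genes, and 0 genes were lower without overlap, against 1.74%. For Psmb10 the heterozygous IP levels were 102, 101 and 100 CPM and the wild-type ones ran from 81.7 to 96.1 CPM, with a log2 difference of 0.15 ± 0.09 (adjusted p = 0.981). Psmc5 had a log2 difference of 0.09 ± 0.09 in IP and 0.08 ± 0.08 in Input.

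Whether the shift of the family in Input separated the animals depended on the summary. The median log2 difference from the wild-type mean over the 47 genes was 0.09, 0.17 and 0.05 in het729, het786 and hetBT13. In wild types it ran from -0.03 to 0.07, the highest being wt785, which lay above hetBT13. The 4 IX and IXX libraries lay between 0.04 and 0.14. The summed level of all 50 family genes did not overlap, at 8008 to 8409 CPM in heterozygotes and 7317 to 7941 CPM in wild types, while the IX and IXX libraries ran from 7491 to 8255 CPM. These summaries carry no test. Animals have names of 2 forms, which may or may not mark a batch. Among animals with BT names (1 heterozygous, 2 wild type) the median was 0.09, with 34 of 47 positive, and among the others (2 and 3) it was 0.12, with 39 of 47 positive. Of all genes, 52% and 50.8% were positive in these Input comparisons. In IP the same medians were 0.06 and 0.04, with 36 of 48 positive in each, against 52.2% and 51.2% of all genes.

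**Figure D5:**
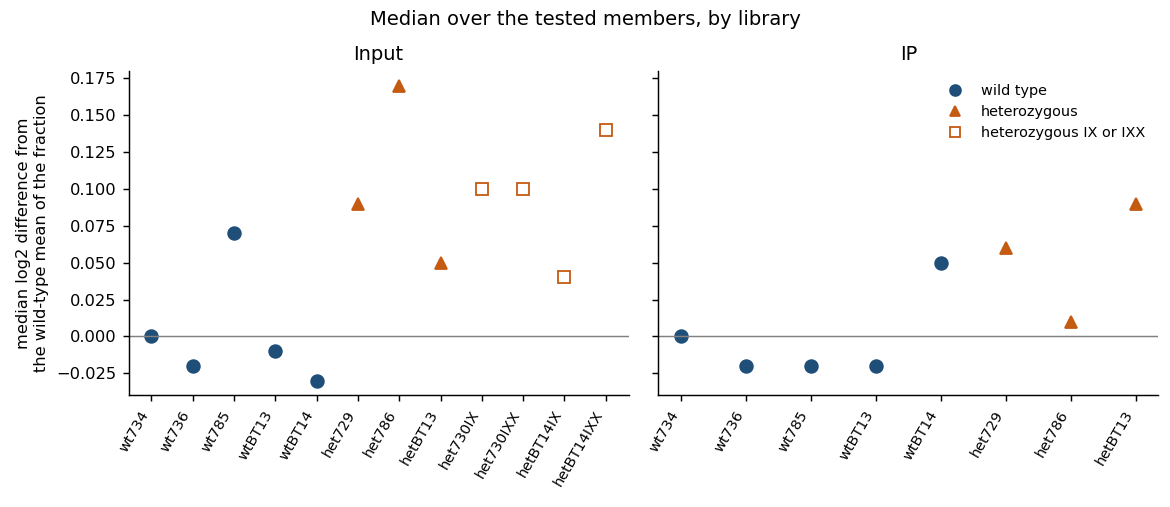
The median log2 difference of the tested family genes from the wild-type mean of the fraction is shown for each library. In Input the heterozygous points lie at 0.05 to 0.17 and wild types at -0.03 to 0.07, and in IP both genotypes lie between -0.02 and 0.09.

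A test of whether the genotype effect differed between IP and Input passed for 0 of 47 genes (edgeR, 0% of 14797 genes in either direction), and DESeq2 and limma-voom called 0 of the family. At an unadjusted p below 0.05 it gave 1 gene, Psmd13, a lid subunit, against 3.07% of all genes. Psmd13 had 164, 175 and 187 CPM in heterozygous Input and 148, 123 and 144 CPM in IP of the same animals, while wild types had 152 ± 8.76 and 145 ± 8.66 CPM (SD, n = 5). Of its exonic bases, 10.1% overlap Sirt3 on the other strand. The median over the 47 genes was -0.07, with 14 positive, 29.8% against 47.5% of all genes, which had a median of -0.01. Ribosomal protein genes had a median of -0.14 with 9 of 81 positive, and oxidative phosphorylation genes -0.06 with 15 of 78.

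Other genes that act with the proteasome were followed beside it. Of 22 partner genes (cap-associated proteins, ubiquitin shuttles and regulators), 4 rose and 9 fell in IP against Input in wild types, and 3 rose and 8 fell in heterozygotes. The shares of all genes were 28.5% and 25.6% in wild types and 22.6% and 22.1% in heterozygotes. Pomp, the maturation factor that works after the Psmg chaperones, fell in contrast to Psmg1 to Psmg3, from 260 ± 23.9 to 188 ± 8.6 CPM in wild types (SD, n = 5), a log2 change of -0.46 (adjusted p = 2.88e-05). Ecpas, a scaffold that binds the particle, rose from 30.9 ± 3.75 to 54.0 ± 6.99 CPM, a log2 change of 0.81 (adjusted p = 1.76e-06). Of 15 ubiquitin supply genes, 3 rose and 9 fell in wild types, with the ubiquitin gene Ubb (log2 change -1.47) among those that fell. Of 13 tested antigen presentation genes, 3 rose and 4 fell in wild types, near the shares of all genes. Between genotypes, no gene of these lists passed in either fraction.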

How the data were processed

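The values are unnormalized read counts for each Ensembl gene, as deposited by the authors, and the submitters' processing notes name HTSeq and the mm10 build. The version of HTSeq, the aligner, the annotation release and the strand setting are not given in the sources used here. Smart-seq2, named in the labels' protocols, marks neither strand nor single molecules. Strand therefore cannot separate reads of overlapping genes, and whether such reads were counted or dropped is not given. Copies made in amplification cannot be told from separate molecules, so counting errors may be understated. Of 25317 identifiers, 24873 were matched to a GENCODE vM21 name, which also gave the members' symbols, positions and transcripts.

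The counts were tested with edgeR 4.0.16 under R 4.3.3 (filterByExpr with a count minimum of 10, TMM, robust quasi-likelihood F test, Benjamini-Hochberg adjusted p below 0.05 over all genes tested). Genotype was tested within each fraction. IP against Input, and the difference of genotype effects, were tested together over 16 libraries with a block for each animal, since the protocol draws both fractions of an animal from a shared lysate. After group means were removed, r between an animal's fractions was 0.05 to 0.21 over 14797 genes, above that with every other animal of its genotype in 7 of 8 animals. Levels are TMM-scaled CPM with SD over animals. Per-library values are given for the catalytic genes and for up to 2 genes of smallest p per role, and those of Psmb11, and of Psmd8 in IP, were added after their values were seen. DESeq2 1.42.0, limma-voom 3.58.1, median-of-ratios (RLE) scaling, no filter, a term for the form of animal names, and leaving out each animal were alternatives. Fits were tested on simulated data. The genes, lists and tests were chosen with earlier results of these data known.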

Additional observations from a re-analysis of the deposited data

Results flagged for a closer look

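In groups of 5 wild-type libraries, 3 values of the family stood apart from the others by Dixon's criterion at the 95% level, among 98 groups examined, where chance gives about 1 in 20. Psma7 in the Input of wt785 was at 323.1 CPM, and the other wild-type Input libraries lay between 268.8 and 283.8 CPM. Psmd10 in the same library was at 46.97 CPM, below the others at 51.66 to 52.35 CPM. Psmc6 in the IP of wtBT14 was at 193.4 CPM, and the other wild-type IP libraries lay between 165.3 and 171.7 CPM. No gene of the family had every animal of a genotype moving one way and every animal of the other genotype the opposite way between IP and Input. The number of samples was not enough to examine the heterozygous groups of 3 in this way.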

How the results depend on the processing

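Counts of calls stayed within 1.5 times the reported count under each alternative, except that leaving out het786 left 7 lower calls in heterozygotes (7 to 14 over the animals left out). Leaving out het786 also took the calls of the whole table in heterozygotes from 6622 to 4732. Without the replicate block, wild types had 9 higher and 9 lower calls and heterozygotes 6 and 14, so the paired fit moved no count by over 1.5 times. No alternative called a gene of the family between genotypes or in the difference between fractions. The lowest adjusted p of any member over all settings was 0.279 in Input, 0.776 in IP and 0.95 for the difference. Adding the IX and IXX libraries gave an Input median of 0.09. Over the whole table, the fit with no filter called 28 genes between genotypes in Input and 11 for the difference, and DESeq2 3 in IP, each against 0.

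Changes of sign concerned values that did not pass, most of them near 0; the reported Input values of Psmg4 (0.31) and Psmc3ip (0.15) were larger. In IP against Input, Psmb5 reached 0.01 without the filter in wild types, and -0.03 with DESeq2 and -0.03 with RLE factors in heterozygotes, and Psmb6 reached 0.00 without the filter in heterozygotes. Over animals left out, Psmb5 ran from -0.05 to 0.04 in wild types and from -0.09 to 0.14 in heterozygotes, and Psmb6 from -0.09 to 0.06 in heterozygotes. Between genotypes in IP, Psmd10 ran from -0.00 to 0.14, Psmf1 from -0.07 to 0.02 and Psmg4 from -0.15 to 0.01. In Input, Psmb8 ran from -0.19 to 0.16, Psmc3ip from -0.08 to 0.32, Psmd9 from -0.02 to 0.10, Psmd10 from -0.15 to 0.04 and Psmg4 from -0.12 to 0.51. The cause of these moves was not tested. Depth limits Psma8 (0 to 3 counts a library), Psmb11 (0 to 14), Psmb9 (1 to 15) and Psmb8 (4 to 25).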
